A study of Homo sapiens with 10 samples.

Results

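The pyruvate dehydrogenase genes described here are 10 genes for subunits, kinases and phosphatases of the complex, read by symbol from tables of 60558 genes. They are PDHA1, PDHB, DLAT and PDHX of the complex itself, the kinases PDK1, PDK2, PDK3 and PDK4, and the phosphatases PDP1 and PDP2. All 10 were found on 1 row each, and all 10 passed the filter on low counts. RNA came from PC3, an established human cell line grown from a bone metastasis of prostate cancer, which the labels give as wild type in every library. In 5 libraries the cells had been kept for 3 days with human bone marrow adipocytes (cocultivated), and in 5 they had not (non-cocultivated). Each library was sequenced as stranded mRNA and carries a batch number from 1 to 5, held by 1 library of each group. Whether the 5 libraries of a group stem from separate cultures is not in the labels, and p-values therefore cover only the spread among these libraries, which may be technical.

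The pyruvate dehydrogenase complex of the mitochondrial matrix turns pyruvate into acetyl-CoA and so links glycolysis to the citric acid cycle. Its E1 enzyme, built from PDHA1 and PDHB, removes carbon dioxide from pyruvate, DLAT passes the acetyl group to coenzyme A, and PDHX anchors the shared E3 enzyme DLD to the DLAT core. The kinases switch the complex off by phosphorylating serines of PDHA1, and the phosphatases remove those phosphates. PDK4 is known as the kinase that fasting and fatty acids induce through PPAR receptors in muscle, heart and liver.

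Libraries held 39074949 to 51515712 expected counts, which are reads that RSEM assigned to genes by likelihood. The total of every library rests on 23024 to 24731 genes with at least 1 count. On the second principal component, with 11.2% of the variance, both batch 1 libraries lay at -20.2 and -29.3, below all others. Counts of called genes without batch 1 are therefore given where they differ. The question is how transcripts of PC3 cells change when adipocytes of the marrow share the culture.

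PDK4 rose about 18-fold after coculture, PDP1 rose by 31.4%, and PDP2, PDK3, PDK1, PDHX and PDHB fell by 8.50% to 24.2%. PDHA1, DLAT and PDK2 had estimates of -5.45%, -5.67% and -8.23% and did not pass the test. Counted by edgeR's quasi-likelihood (QL) test at a Benjamini-Hochberg adjusted p under 0.05 over 15690 genes, 2 of the 10 genes were higher and 5 lower. Over all genes tested, 33.6% were called, 17.9% as higher and 15.8% as lower. Each of the 10 genes moved in 1 direction in all 5 batches, 2 upward and 8 downward, against 48.6% of all genes with a shared direction. With the batch number as a block, the other 3 genes were called too, as lower, and 44.4% of all genes were called, 22.2% as higher and 22.2% as lower. Without batch 1 the count was 2 higher and 6 lower, PDK2 being added, beside 3033 higher and 2651 lower of all genes. Without batch 2 it was 2 higher and 3 lower, PDHX and PDK1 being lost, beside 2116 and 1702 of all genes. The block gave adjusted p of 0.0367 for PDHA1, 0.0450 for DLAT and 0.0454 for PDK2. With library totals in place of the TMM scaling the count was also 8 lower, while over all genes the split changed from 2801 higher and 2478 lower to 2216 and 3555. That change of scaling moved the median log2 fold change of all genes from -0.01 to -0.06.

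**Figure D1:**
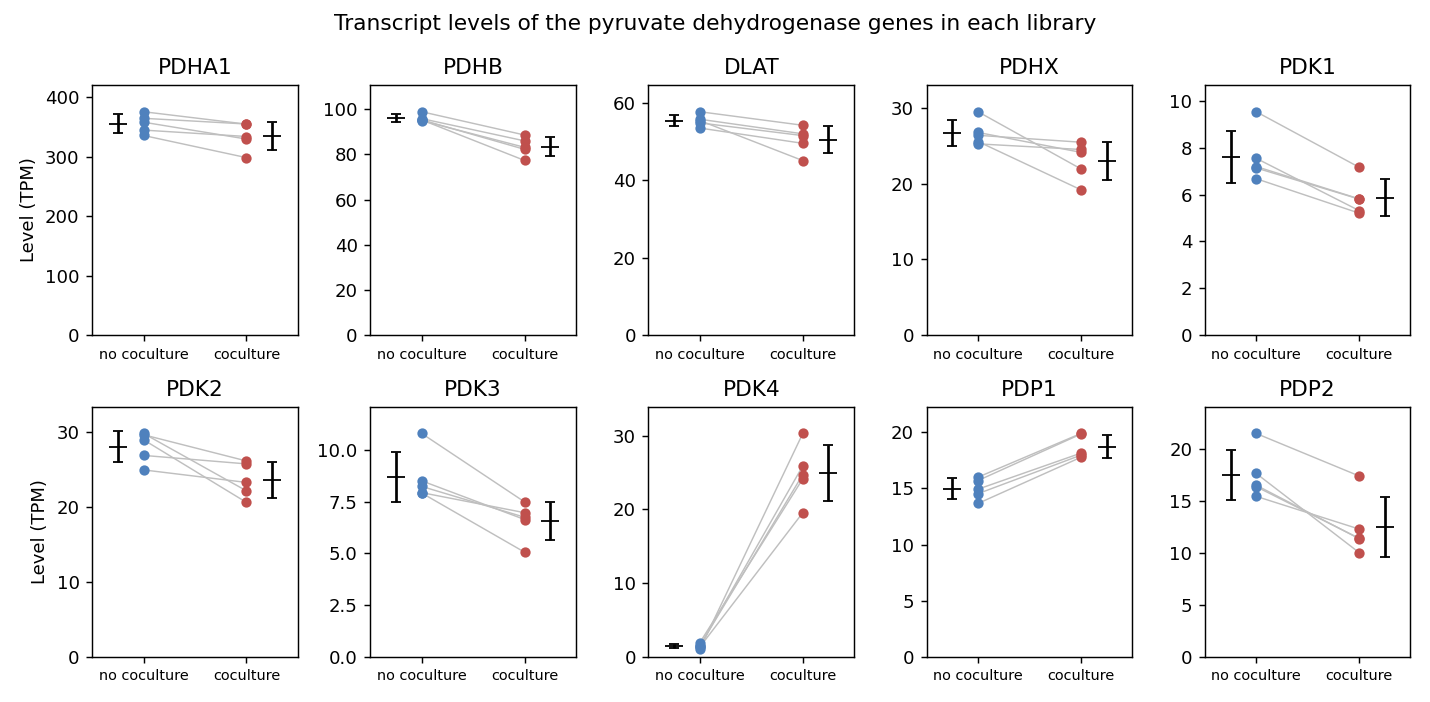
Levels in TPM (a share of all transcripts, corrected for length) of the 10 genes in each library, with grey lines joining libraries of a batch and black bars giving the mean ± SD of 5 libraries. The 5 cocultivated libraries of PDK4 sit at 19.5 to 30.3 TPM, above the non-cocultivated range of 1.05 to 1.94, while each of the other panels shows a far smaller shift.

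Without coculture PDK4 was the least abundant of the 10 transcripts in all 5 libraries. Its level in non-cocultivated batches 1 to 5 was 1.94, 1.44, 1.51, 1.35 and 1.05 TPM. In cocultivated batches 1 to 5 it was 24.1, 25.9, 24.7, 19.5 and 30.3 TPM. The groups were far apart, and batch 5 held both the lowest level without coculture and the highest with it. The counts behind these levels were 119 to 237 without coculture and 2279 to 3748 with it. On the count scale PDK4 rose from 3.41 ± 0.681 to 63.1 ± 12.4 CPM (counts scaled to library size, mean ± SD, n = 5 and 5). The log2 fold change was 4.20 ± 0.16 (SE), and the edgeR QL adjusted p was 4.17e-09, the sixth smallest among 15690 genes. Within batches the log2 difference ran from 3.63 in batch 1 to 4.99 in batch 5.

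PDK3 and PDK1 went the opposite way. PDK3, a kinase encoded on the X chromosome, lay at 10.8, 8.51, 8.24, 7.94 and 7.92 TPM in non-cocultivated batches 1 to 5. It lay at 7.49, 6.64, 6.75, 6.97 and 5.06 TPM in the cocultivated ones. The ranges did not overlap, and the library of batch 1 without coculture stood above the rest. PDK3 fell by 0.40 ± 0.11 on the log2 scale (edgeR QL adjusted p 0.0125). Without that library the log2 fold change was -0.27 ± 0.06 (adjusted p 0.0046).

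PDK1, a kinase known as a target of hypoxia-inducible factor, lay at 9.54, 7.14, 7.20, 7.55 and 6.68 TPM in the non-cocultivated libraries. In the cocultivated ones it lay at 7.17, 5.81, 5.82, 5.32 and 5.21 TPM. The groups overlapped by the cocultivated library of batch 1, yet within batches the log2 differences were alike, from -0.30 to -0.22. PDK1 fell by 0.28 ± 0.08 on the log2 scale (edgeR QL adjusted p 0.0119), but was not called without batch 2 (adjusted p 0.0549).

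PDK2, the kinase with the broadest tissue distribution, was the most abundant kinase without coculture, at 24.9 to 29.8 TPM with a median of 28.9. With coculture it lay at 20.6 to 26.1 TPM with a median of 23.2, and the groups overlapped. Its log2 fold change was -0.12 ± 0.05 (edgeR QL adjusted p 0.0556). It passed the threshold with the batch block, with library totals, with DESeq2 (adjusted p 0.0421), with limma on filtered TPM (adjusted p 0.0257 and 0.0249) and in 5 of 15 fits that left out libraries. In batch 5 the difference was only -0.01.

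The mix of kinase transcripts thus differed between the groups. In TPM, PDK4 made up 3.16% ± 0.426 (SD, n = 5) of the summed kinase level without coculture and 40.8% ± 4.20 with it. The share of PDK2 was 61.3% ± 2.63 without and 38.6% ± 1.73 with coculture. PDK4 was the most abundant kinase in cocultivated batches 2, 3 and 5, and PDK2 in batches 1 and 4. In the order of mean levels with coculture, PDK4, PDK2 and PDHX at 24.9, 23.5 and 23.0 TPM overlapped, whereas DLAT above them at 50.5 TPM did not. Summed over the 4 kinases the level was 40.6 to 51.9 TPM without and 52.4 to 64.9 TPM with coculture, so the sums did not overlap. Summed over PDK1, PDK2 and PDK3 alone it was 39.5 to 49.9 and 32.9 to 40.8 TPM. These sums and shares are descriptions with no test.

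**Figure D2:**
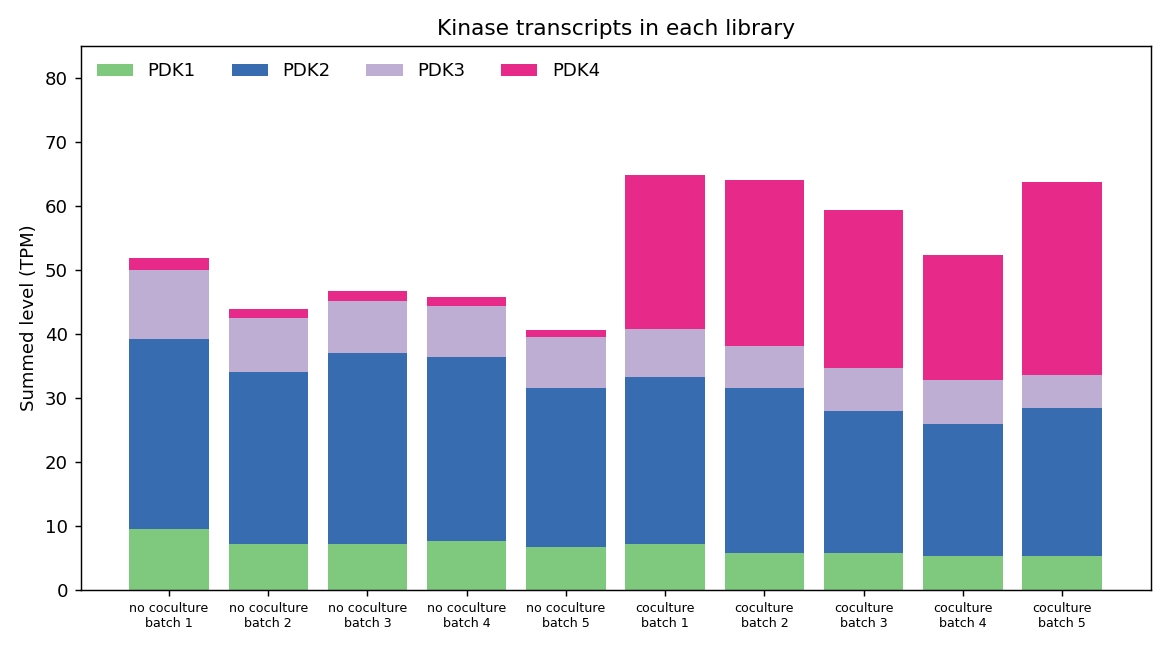
Stacked levels (TPM) of the 4 kinase transcripts in each library. PDK4 is a thin band of 2.59% to 3.74% in the 5 non-cocultivated bars and takes 37.2% to 47.5% of the 5 cocultivated bars, whose totals are also higher.

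The start regions of the 4 kinase genes are shown because PDK4 rose while PDK1 and PDK3 fell, with PDK2 not called, and the letters can be read side by side. Each RefSeq window (GRCh38.p14) covers 250 bases before and 50 after the start site, written 5′ to 3′ along the gene, with capitals marking ACGTG on either strand, the core letters that hypoxia-inducible factors and E-box proteins bind.
PDK4 chr7:95596467-95596766 - strand: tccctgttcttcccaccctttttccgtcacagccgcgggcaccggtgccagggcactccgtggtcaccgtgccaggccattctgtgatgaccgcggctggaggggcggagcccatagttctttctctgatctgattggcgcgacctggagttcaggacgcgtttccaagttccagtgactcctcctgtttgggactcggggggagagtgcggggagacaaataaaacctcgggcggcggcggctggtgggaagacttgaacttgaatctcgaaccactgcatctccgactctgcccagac
PDK1 chr2:172555840-172556139 + strand: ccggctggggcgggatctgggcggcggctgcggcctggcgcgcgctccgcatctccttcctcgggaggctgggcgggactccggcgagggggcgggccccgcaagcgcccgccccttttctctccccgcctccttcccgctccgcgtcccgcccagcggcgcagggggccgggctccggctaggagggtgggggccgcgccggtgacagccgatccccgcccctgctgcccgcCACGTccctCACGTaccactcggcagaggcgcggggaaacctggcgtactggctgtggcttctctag
PDK2 chr17:50095101-50095400 + strand: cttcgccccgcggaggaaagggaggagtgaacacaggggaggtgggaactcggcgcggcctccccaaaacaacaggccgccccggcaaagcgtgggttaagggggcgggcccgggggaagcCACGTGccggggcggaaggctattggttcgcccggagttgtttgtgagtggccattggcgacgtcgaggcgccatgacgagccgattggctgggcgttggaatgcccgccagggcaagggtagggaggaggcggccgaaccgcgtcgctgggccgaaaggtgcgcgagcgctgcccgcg
PDK3 chrX:24465036-24465335 + strand: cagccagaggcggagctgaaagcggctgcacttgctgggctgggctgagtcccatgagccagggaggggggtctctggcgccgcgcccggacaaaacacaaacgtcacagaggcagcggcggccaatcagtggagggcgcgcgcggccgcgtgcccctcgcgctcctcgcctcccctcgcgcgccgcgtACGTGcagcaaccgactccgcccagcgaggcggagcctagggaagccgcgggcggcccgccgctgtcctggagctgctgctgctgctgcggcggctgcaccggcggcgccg
PDK4 has no ACGTG in this window, while PDK1, PDK2 and PDK3 have it in the windows shown. For PDK1 and PDK2 the window with a match was chosen, and their other windows, 1 for PDK1 and 2 for PDK2, have none. Windows of 9 of the 10 genes were at hand, 13 in all, since PDK1, PDHX and PDK2 have several starts. The PDHX windows overlap, so the same letters can be counted in more than 1 of them. ACGTG occurred in 7 of the 13 windows, from 7 genes, and in 21.4% of 35116 promoter windows of the same length. That share is per window and gives no baseline for a count of genes, as some genes have several windows. Of the motifs searched, only ACGTG is marked in the letters above. The genes with no match in any window were PDK4 and PDHA1. Overlapping matches on both strands at CACGTG were counted on each strand. The nuclear receptor half-site AGGTCA, which PPAR and estrogen-related receptors use, occurred only in the DLAT window (13.8% of all windows). The forkhead core TGTTTAC occurred in none of the 13 (3.42% of all). Of 3 core promoter motifs also searched, GGGCGG was in 10 and CCAAT in 8 of the 13 windows, PDK4 included in both (45% and 34.6% of all), and TATAAA was in the other PDK1 window only (11.5%). A match is a description of letters, and the lack of one says nothing on sites outside these windows.

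The phosphatases moved in opposite directions. PDP1, the calcium-stimulated phosphatase, lay at 13.7, 14.9, 15.7, 14.5 and 16.0 TPM in non-cocultivated batches 1 to 5. In cocultivated batches 1 to 5 it lay at 17.8, 18.2, 19.9, 17.97 and 19.9 TPM. Every cocultivated library was above every non-cocultivated one. PDP1 rose by 0.39 ± 0.07 on the log2 scale (edgeR QL adjusted p 0.00123), with within-batch differences of 0.35 to 0.47.

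PDP2, the second phosphatase isoform, first described in rat, lay at 21.5, 17.6, 16.4, 15.4 and 16.5 TPM without coculture. With coculture it lay at 17.4, 10.0, 11.4, 12.3 and 11.4 TPM. The TPM ranges overlapped through batch 1, in which PDP2 was high in both groups, but the CPM ranges did not. PDP2 fell by 0.35 ± 0.08 on the log2 scale (edgeR QL adjusted p 0.0042). The ratio of PDP1 to PDP2 in TPM was 0.637 to 0.971 without and 1.02 to 1.81 with coculture. PDP2 was thus the more abundant phosphatase transcript in all 5 non-cocultivated libraries and PDP1 in all 5 cocultivated ones. Their sum overlapped, at 30.0 to 35.1 and 28.2 to 35.2 TPM. The kinase sum divided by the phosphatase sum was 1.25 to 1.53 without and 1.73 to 2.27 with coculture, as a description of transcripts and not of enzyme activity.

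The 4 transcripts of the complex itself were the most abundant apart from PDHX, and all had small negative estimates. PDHB, the beta subunit of E1, lay at 98.9, 95.3, 95.8, 94.9 and 95.3 TPM without coculture. With it PDHB lay at 88.6, 82.2, 86.0, 83.1 and 77.3 TPM, so the groups did not overlap. PDHB fell by 0.13 ± 0.03 on the log2 scale (edgeR QL adjusted p 0.00585), and its within-batch differences were the tightest of the 10 genes, from -0.14 to -0.12. PDHB kept its call under all 25 alternatives.

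PDHX, the E3 binding protein, lay at 26.4, 29.5, 26.7, 25.2 and 25.5 TPM without and 25.5, 21.9, 24.1, 24.5 and 19.2 TPM with coculture. The ranges overlapped. PDHX fell by 0.14 ± 0.05 on the log2 scale (edgeR QL adjusted p 0.0407), a call that was lost in 14 of 25 alternatives. Among them were the fits without cocultivated replicates 1, 2, 3 or 5, without non-cocultivated replicates 2, 3 or 4, and without batches 2, 3 or 5 (adjusted p 0.0572 to 0.199). PDHX shares 4.89% of its 75-base windows with APIP on the opposite strand, which was at 24.8 to 35.7 CPM, and its level is uncertain to that extent.

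PDHA1, the phosphorylated subunit, was the most abundant of the 10 genes in all libraries, at 335 to 375 TPM with a median of 358 without coculture. With it PDHA1 lay at 298 to 355 TPM with a median of 334. The ranges overlapped, and the log2 fold change of -0.08 ± 0.04 did not pass (edgeR QL adjusted p 0.179). DLAT, the acetyltransferase core, lay at 53.5 to 57.8 and 45.1 to 54.3 TPM, also with overlap (-0.08 ± 0.04, edgeR QL adjusted p 0.166). The summed level of the 4 transcripts was 512 to 556 TPM without and 440 to 520.3 TPM with coculture. Set against PDHA1, the summed kinase level was 12.1% to 14.2% without and 15.7% to 21.4% with coculture.

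**Figure D3:**
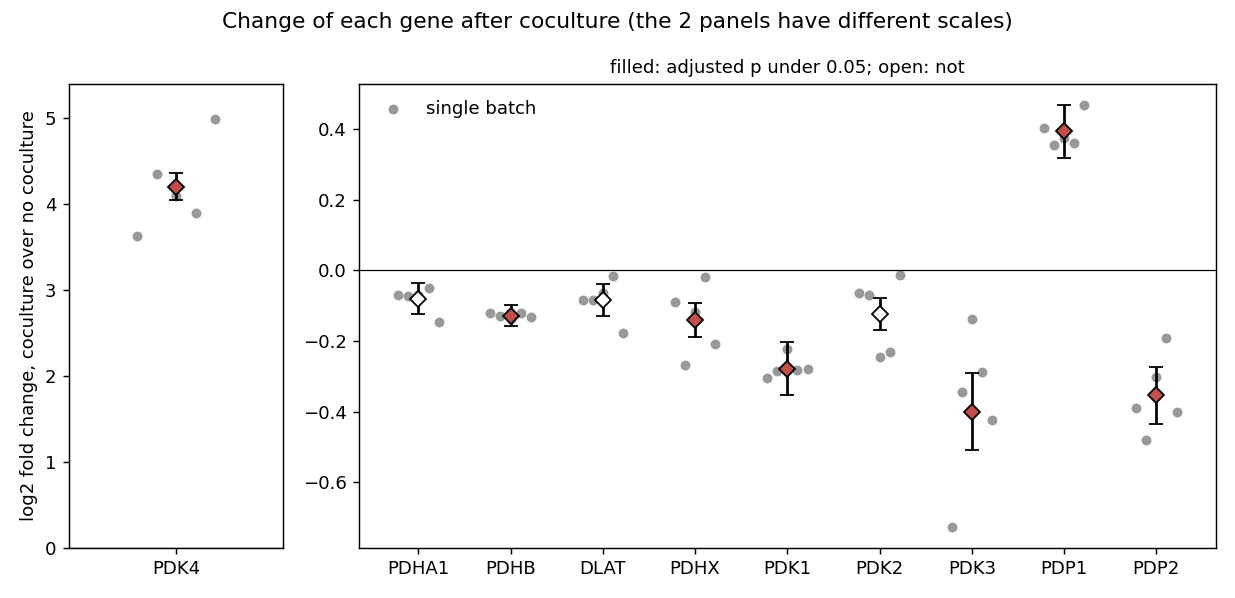
Log2 fold change of each gene (diamonds, edgeR QL estimate ± SE, filled where the adjusted p was under 0.05) and the difference within each of 5 batches (grey points). PDK4 at 4.20 has a scale of its own in the left panel, PDP1 is the other gene above 0, and the 8 remaining genes lie below 0 in every batch.

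CPM ranges of the groups did not overlap for 5 of the 10 genes, PDK4, PDP1, PDP2, PDK3 and PDHB, and for 25.4% of all genes tested. The abundance-weighted transcript length in the deposited tables, which shifts when a gene's isoform mix shifts, was compared as a readout apart from the counts. None of the 10 genes passed (limma, 0 at an adjusted p under 0.05, 1 at an unadjusted p under 0.05), and over 13386 genes 0.0672% did. The 1 gene was PDHA1, at 1057 to 1086 bases without and 992 to 1052 bases with coculture (unadjusted limma p 0.0105, adjusted p 0.352). PDK4 had a mean length of 3519 ± 123 bases without and 3582 ± 32.0 bases with coculture. No 75-base window of the 10 genes' GENCODE v29 transcripts occurred on the same strand of another gene. On the opposite strand 35.5% of the PDK2 windows occur in SAMD14, which had at most 0.0861 CPM, and 15.7% of the PDHA1 windows in MAP3K15, which had at most 2.02 CPM. PDK4, PDK3 and PDP1 shared none.

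Marker genes of cell types besides PC3 were read in the same libraries. Of 12 adipocyte markers 5 had 3 counts or fewer in all libraries, among them the adipocyte hormones ADIPOQ and LEP and the lipase LPL. ADIPOQ had 0 counts in all 5 cocultivated libraries, which allows up to 0.0768 CPM in the shallowest of them. The summed level of the 12 was nonetheless higher, at 52.2 to 78.0 CPM without and 158 to 286 CPM with coculture. That sum was carried by the fatty acid binding protein FABP4 (98.5 to 220.2 CPM with coculture) and the droplet protein PLIN4 (39.3 to 58.6 CPM). Both were also present without coculture, at 21.9 to 45.04 and 21.7 to 25.6 CPM. CIDEC fell (-0.88 on the log2 scale, edgeR QL adjusted p 0.00585) and CFD did not pass (adjusted p 0.938). The part of adipocyte RNA in the PDK4 level was not tested beyond these markers. In bulk RNA, fewer cells of a type and less RNA per cell cannot be told apart.

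Sums of stromal and endothelial markers were lower with coculture, at 5.12 to 6.78 against 10.8 to 12.9 CPM and 18.7 to 25.9 against 31.6 to 43.6 CPM. Of the stromal markers with a mean of at least 1 CPM with coculture, COL1A1 and PDGFRA fell by 1.07 and 1.18 on the log2 scale, and LEPR did not pass (0.10, edgeR QL adjusted p 0.708). The endothelial sum was lower through KDR, which went from 24.6 ± 3.93 to 10.2 ± 3.20 CPM. TEK rose from 0.823 ± 0.143 to 1.44 ± 0.0677 CPM (edgeR QL adjusted p 4.22e-04), and PECAM1 did not pass (10.4 ± 1.09 to 10.9 ± 0.970 CPM, adjusted p 0.265). The sum of 8 haematopoietic markers was higher, at 42.7 to 50.2 against 33.0 to 39.4 CPM. Nearly all of it was CD68, which rose by 0.50 on the log2 scale (edgeR QL adjusted p 2.19e-04), while PTPRC had at most 3 counts. LYZ, of the same list, fell from 2.23 ± 0.783 to 0.562 ± 0.153 CPM (edgeR QL adjusted p 5.57e-05). Of 6 markers of PC3 as an epithelial line 5 fell and 0 rose. KRT8 went from 113.7 ± 4.39 to 57.0 ± 4.46 CPM (edgeR QL adjusted p 1.58e-07), and KRT18, KRT19, EPCAM and CDH1 fell by 0.61, 0.21, 0.14 and 0.69 on the log2 scale. VIM, which makes up most of their sum, did not pass (1625 ± 86.0 to 1708 ± 145.1 CPM, adjusted p 0.209), and the sums overlapped at 2508 to 2779 without and 2216 to 2654 CPM with coculture. The part of these shifts in the results for the 10 genes was not tested.

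**Figure D4:**
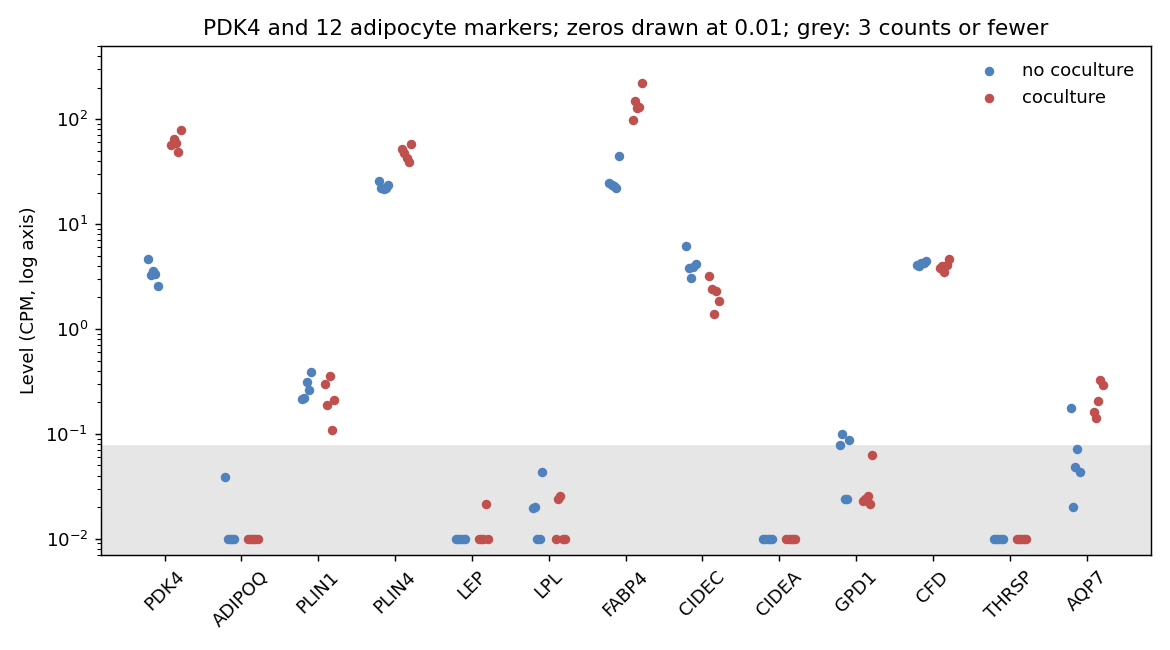
Levels (CPM of the library total, log axis) of PDK4 and 12 adipocyte markers in each library, with 0 drawn at 0.01 and levels of 3 counts or fewer shaded. FABP4 and PLIN4 move up beside PDK4, whereas ADIPOQ, LEP, LPL, CIDEA and THRSP stay in the shaded band in both groups.

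Partners of the complex showed no call. DLD, the E3 enzyme shared with other dehydrogenases, had 147 ± 3.74 CPM without and 146 ± 8.95 CPM with coculture (log2 fold change -0.01 ± 0.05, edgeR QL adjusted p 0.852). Of 8 genes for E3, lipoic acid attachment and phosphatase regulation 7 were tested, and 0 were called by edgeR QL, with 0 at an unadjusted p under 0.05. The smallest p belonged to LIAS, which makes lipoic acid (-0.07 ± 0.05, adjusted p 0.237), and to GLRX5, an iron-sulfur cluster protein (-0.07 ± 0.05, adjusted p 0.292). DESeq2 also called 0. With the batch as a block 1 of the 7 was called as lower, beside 22.2% of all genes. With library totals 2 were called as lower, beside 3555 of all genes. The list's median log2 fold change was -0.07, beside -0.13 for the 10 genes and -0.01 for all genes tested, of which 33.6% were called by edgeR QL. PDHA2, the testis form of E1 alpha, was listed at 0 TPM in all 10 libraries.

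Genes that make, carry or compete for pyruvate were lower in 4 and higher in 2 of 14 tested, beside 15.8% of all genes lower and 17.9% higher. With the batch as a block the list had 7 lower and 4 higher, beside 22.2% of all genes in each direction. It had 7 lower and 2 higher with library totals, beside 3555 lower and 2216 higher of all genes. Without batch 1 it had 5 lower and 2 higher, beside 2651 lower and 3033 higher of all genes. The genes of the list that fell were LDHA, which interconverts pyruvate and lactate, the pyruvate kinase PKM, the lactate exporter SLC16A3 and the malic enzyme ME1. LDHA went from 2164 ± 60.7 to 1745 ± 110.2 CPM (-0.31 ± 0.05, edgeR QL adjusted p 4.93e-04), and ME1 fell by 0.35 ± 0.04. PCK2, mitochondrial phosphoenolpyruvate carboxykinase, rose from 13.5 ± 0.807 to 34.2 ± 4.44 CPM (1.34 ± 0.08, edgeR QL adjusted p 1.35e-07), and the alanine transaminase GPT2 rose by 0.22 ± 0.04. The mitochondrial pyruvate carrier genes MPC1 and MPC2 had estimates of -0.18 ± 0.08 and 0.11 ± 0.06. Neither passed in the fit without a batch term (edgeR QL adjusted p 0.0966 and 0.222). With the batch as a block, MPC2 was among the 4 genes called as higher, with PCK2, GPT2 and SLC16A7.

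Among 12 genes that use, export or otherwise supply acetyl-CoA, 4 were higher and 1 lower, beside 17.9% of all genes higher and 15.8% lower. With the batch as a block the list had 4 higher and 3 lower, beside 22.2% of all genes in each direction. It also had 4 and 3 with library totals, beside 2216 higher and 3555 lower of all genes. Without batch 1 it had 5 higher and 2 lower, beside 3033 and 2651 of all genes. Leaving out only the non-cocultivated library of batch 1 also gave 5 and 2, beside 2738 and 2412. The 4 that rose were ACAA2, CPT1A, HADHA and HADHB, which act in mitochondrial fatty acid oxidation. ACAA2, its thiolase, rose from 23.5 ± 2.38 to 63.3 ± 5.07 CPM (1.43 ± 0.07, edgeR QL adjusted p 3.67e-08). CPT1A, which gates the entry of fatty acyl groups, rose from 71.0 ± 6.28 to 139 ± 18.8 CPM (0.96 ± 0.09, edgeR QL adjusted p 2.99e-06). HADHA and HADHB, subunits of the trifunctional protein, rose by 0.40 and 0.35. CPT2, the partner of CPT1A on the inner membrane, and the thiolase ACAT1 had estimates of -0.10 ± 0.04 and -0.11 ± 0.04. Neither passed in the fit without a batch term (edgeR QL adjusted p 0.105 and 0.0687). Which genes the block added as lower is not given here. ACSS1, the mitochondrial acetate-activating enzyme, fell from 13.8 ± 0.583 to 7.90 ± 1.18 CPM. Citrate synthase, CS, did not pass (-0.04 ± 0.05, adjusted p 0.621).

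Of 15 tested factors known to act on PDK1 or PDK4, 4 were higher and 4 lower, beside 17.9% of all genes higher and 15.8% lower. With the batch as a block the list had 5 higher and 5 lower, beside 22.2% of all genes in each direction. It had 5 higher and 4 lower without batch 1, beside 3033 higher and 2651 lower of all genes. PPARD, the fatty acid receptor PPAR delta, rose from 44.0 ± 0.368 to 75.4 ± 4.47 CPM (0.78 ± 0.04, edgeR QL adjusted p 5.11e-08). PPARG fell from 124.6 ± 2.79 to 88.7 ± 3.38 CPM (-0.49 ± 0.04, edgeR QL adjusted p 6.55e-07). PPARA was at a low level, 1.77 ± 0.236 CPM without and 2.23 ± 0.294 CPM with coculture. It did not pass in the fit without a batch term (0.33 ± 0.13, edgeR QL adjusted p 0.0589). FOXO1 and ESRRA, both known to act on PDK4, rose by 0.39 ± 0.10 and 0.19 ± 0.04. HIF1A, known to act on PDK1, fell by 0.28 ± 0.06, whereas its relative EPAS1 rose by 0.32 ± 0.04. NR3C1, the glucocorticoid receptor, and MYC fell by 0.19 ± 0.05 and 0.24 ± 0.04. PPARGC1A, a coactivator of PPAR receptors, was not tested, at no more than 0.06 TPM in any library.

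**Figure D5:**
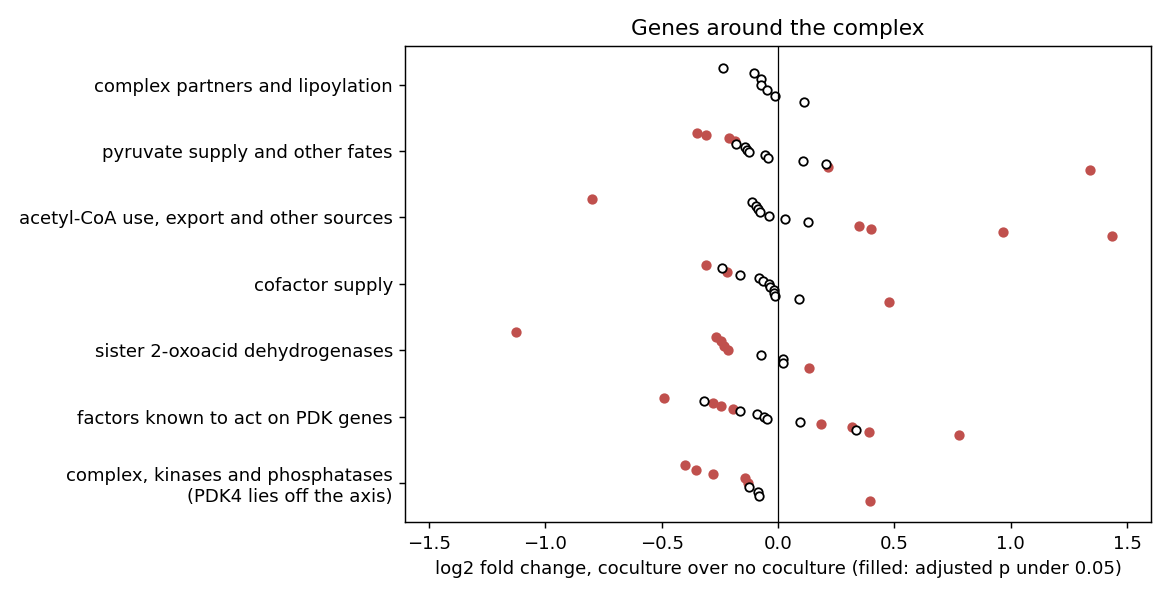
Log2 fold changes (edgeR QL) of genes around the complex by list, filled where the adjusted p was under 0.05. Points of the acetyl-CoA list reach 1.43 for ACAA2 and -0.80 for ACSS1, those of the partners of the complex are all open, and PDK4 at 4.20 is off the axis.

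The genes whose change over the 5 batches lay nearest to that of PDK4 were ranked by the root mean square difference of their within-batch log2 differences, among 12976 other genes with a mean of at least 1 CPM. They were AKR1C1 at 0.70, FAM83A at 0.77, AKR1C2 at 0.87, AADAC at 0.87 and PHLDA3 at 1.03. FAM83A, AKR1C2 and AADAC had means of 0.317, 0.444 and 0.231 CPM without coculture and passed the filter on mean level only through the cocultivated libraries, so the filter favours genes with large rises. In the order above, the log2 fold changes were 4.72, 3.74, 4.08, 3.67 and 3.28. The nearest gene was thus 0.70 log2 units away on average, while PDK4's own differences spanned 3.63 to 4.99. AKR1C1 and AKR1C2 are close paralogs, so their levels are uncertain.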

How the data were processed

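Gene tables of 10 PC3 libraries, 5 per group, were used. The deposited expected counts and TPM values  stand under RSEM's column names, per the file headers, and FPKM values were deposited by the authors but not used. The length columns are read, per the file headers, as a signal in bases weighted by isoform abundance. RSEM 1.3.3, Bowtie2 2.4.4 and bcl2fastq are listed in the submitters' processing notes. The build, the annotation and the strand option of the counting were not given in the sources used here. The library kit was stranded, but overlaps of genes on opposite strands are given as uncertain. Rounded expected counts were fitted by edgeR 4.0.16 under R 4.3.3 (filterByExpr with minimum count 10 and minimum total 15, TMM factors 0.953 to 1.04, QL F test, Benjamini-Hochberg over 15690 genes), with the SE of a log2 fold change taken from its size and F. Within-batch differences are of log2 CPM with a prior count of 2. Lengths were tested with limma 3.58.1, and alternatives with DESeq2 1.42.0, limma-voom and limma on log2(TPM + 1) or log2(TPM + 0.1). The fits were tested on simulated data in which few genes changed, without a batch effect. The simulated count changes were larger than those of the 10 genes other than PDK4, so calls of that smaller size were not covered. Marker sums and limits are CPM of the library total, a count of 0 allows up to 3 counts, and such limits cover counting error only. No 2 libraries of a group were alike within sampling noise (chi-square per degree of freedom of at least 4.92).

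The printed estimates come from a fit without a batch term. Batch numbers pair the libraries, as the labels mark the number as a batch in both groups, and the fit with batch as a block is given where it changes a call. The deviations of paired libraries from their group means correlated across genes at 0.33, -0.02, 0.07, 0.10 and 0.28 for batches 1 to 5.

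The 10 genes, lists and tests were chosen with earlier results of these data known. Named were the 10 genes, the 2 genes of each list with the smallest p, markers of at least 1 CPM and the 5 genes nearest to PDK4. DLD, CS, MPC1, MPC2, CPT2, ACAT1, BCKDK, LYZ, list members behind counts of 5 or fewer, and genes sharing sequence were named after their values were seen. PDP1 sequence is not reported here.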

Additional observations from a re-analysis of the deposited data

Results flagged for a closer look

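In a group of 5 libraries, a level was singled out when its gap to the nearest other library exceeded 0.71 of the group's range. This was checked in 48 groups of values (levels of the 10 genes and their sums, ratios and shares), and chance alone gives about 1 in 20. Of the 2 found, both were in non-cocultivated batch 1. PDK3 stood there at 10.8 TPM, with the next library at 8.51. PDHB stood there at 98.89 TPM, with the next at 95.84.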

How the results depend on the processing

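The 10 genes kept their direction under all 25 alternatives, and PDK4, PDP1 and PDHB also their calls. PDK4 ranged from 3.39 (log2(TPM + 1)) to 4.36, PDP1 from 0.31 to 0.44 and PDHB from -0.20 to -0.12. The number lower of the 10, 5 as reported, was 8 with the replicate block, with library totals and with both together, 1 with limma on log2(TPM + 1) of all genes without a filter, and 3 to 6 when libraries or batches were left out. The count of 3 came without batch 2, where PDHX and PDK1 were not called. The number higher was 2 throughout. Over all genes, the higher count was 1740 and 1733 with limma on log2(TPM + 1) and log2(TPM + 0.1) and 1499 without a filter, against 2801, and the lower count was 4771 with the block and library totals, against 2478. Leaving libraries out gave 2116 to 3041 higher and 1702 to 2675 lower. Genes with a called length numbered 9, 3 with the replicate block and 5 to 10 without single libraries, with 0 of the 10 genes in each. PDP2, PDK3, PDK1 and PDHX were not called (limma adjusted p 0.0515, 0.0602, 0.0678 and 0.119) with limma on unfiltered TPM. The block changed no other call of the 10 genes than those given. The cause of these shifts was not tested. Counts of at least 119 reads lie behind each level of the 10 genes, so depth limits PDK4 without coculture most.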

Other observations

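The sister complexes that share the architecture of pyruvate dehydrogenase were lower in 5 and higher in 1 of 9 genes tested, with a median log2 fold change of -0.21, beside 15.8% of all genes lower and 17.9% higher. The number lower was 3 without the non-cocultivated library of batch 1, 2 without batch 2 and 3 without batch 4. Over all genes these fits had 2412, 1702 and 1861 lower, against 2478. With limma on TPM the number lower was 2, beside 2975 of all genes with log2(TPM + 1). The number higher was 0 without batches 2, 3 or 4, beside 2116, 2135 and 2293 of all genes. With limma on TPM it was also 0, beside 1740 of all genes with log2(TPM + 1). Genes for breakdown of branched-chain amino acids made up 3 of the 5: BCKDHA, the E1 alpha subunit, fell from 17.9 ± 0.685 to 14.9 ± 0.927 CPM (-0.26 ± 0.05, edgeR QL adjusted p 0.00183), with BCKDHB at -0.21 and DBT at -0.24. OGDHL fell from a low level, 0.603 to 0.270 CPM (-1.13 ± 0.28, edgeR QL adjusted p 0.00681), and DHTKD1 by 0.23. DLST, the E2 of the 2-oxoglutarate complex, rose by 0.13, a call that was lost with library totals and without a filter on low counts. The kinase BCKDK, a relative of the PDK family, did not pass (0.02 ± 0.06, adjusted p 0.799).

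For the cofactors thiamine diphosphate, FAD and CoA, 1 of 13 genes tested was higher and 2 were lower, beside 17.9% of all genes higher and 15.8% lower. With the batch as a block the list had 1 higher and 3 lower, beside 22.2% of all genes in each direction. It had 1 higher and 4 lower with library totals, beside 2216 higher and 3555 lower of all genes. The number lower was 1 without the library of batch 2 in either group, the cocultivated one of batch 3 or the non-cocultivated one of batch 4. Those fits had 2057 to 2162 lower of all genes, against 2478. It was 1 without batch 2 and 0 without batch 3, beside 1702 and 1747 of all genes. The number higher was 1 throughout. PPCS, an enzyme of CoA synthesis, rose from 30.2 to 42.0 CPM (0.48 ± 0.05, edgeR QL adjusted p 1.46e-05). PANK1, which starts CoA synthesis, fell (-0.31 ± 0.09, adjusted p 0.0170), as did the thiamine transporter SLC19A2 (-0.22 ± 0.07).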
